A study of Mus musculus with 6 samples.

Results

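Receptors that couple to heterotrimeric G proteins set the level of cyclic AMP in a neuron through 3 families of proteins, whose mRNAs are described here: RGS proteins, adenylate cyclases and cyclic nucleotide phosphodiesterases. They were followed in subiculum and retrosplenial cortex of newborn mice. Members were the genes with a single symbol in the platform annotation that begins with Rgs or Adcy and ends in a number (Rgs7bp and Rgs9bp included), or that begins with Pde and ends in a number and a letter from a to d. Of 18193 genes measured, 52 met this rule: 21 of the RGS group, 10 adenylate cyclases and 21 phosphodiesterase genes. Each was read on whichever of its probe sets had the highest 6-array mean, and its other probe sets were then examined.

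Signals came from 3 arrays of D6/Zbtb20S mice and 3 of their wildtype littermates, both on a C57BL/6 background and taken at postnatal day 1, and every array held RNA pooled from 7 animals. The tissue of D6/Zbtb20S mice is labelled as subiculum and retrosplenial cortex transformed to CA1, and that of wildtype mice as the corresponding areas. As background, D6 is a forebrain regulatory element of the mouse Dach1 gene, and Zbtb20S is a short form of the zinc finger repressor Zbtb20, and the element drives expression in the developing forebrain beyond the areas dissected. Nothing in the sources says if different litters supplied the pools of a genotype, and p-values therefore cover only the spread between pools.

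A receptor activates a G protein by loading its alpha subunit with GTP. RGS proteins end that signal by speeding GTP hydrolysis on the alpha subunit. Adenylate cyclases make cyclic AMP under the control of Gs, Gi, G beta-gamma and calcium, and phosphodiesterases break down cyclic AMP, cyclic GMP or both. In the cortex and hippocampus these enzymes shape plasticity and the response to neuromodulators.

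All values are log2 signals as deposited, or log2 differences of D6/Zbtb20S minus wildtype with the standard error of the moderated limma fit. Every adjusted p is limma's after Benjamini-Hochberg correction for all 18193 genes (for all 45037 probe sets where a single probe set is tested), and the threshold is 0.05. The tissue is bulk, so fewer cells of a type and less RNA per cell cannot be told apart. On 1 of its probe sets (1422064_a_at) Zbtb20 read 8.88 to 9.10 in D6/Zbtb20S tissue and 5.84 to 7.64 in wildtype tissue (limma adjusted p = 0.00904), while its other 8 probe sets did not pass. Wildtype replicate 3 gave the 7.64, and wildtype replicates also spread in RNA quality controls: the 3' minus 5' signal of actin lay between 0.80 and 0.91 on D6/Zbtb20S arrays and at 0.53, 0.88 and 1.31 on wildtype replicates 1, 2 and 3. For Gapdh it lay between -0.023 and -0.0018 on D6/Zbtb20S arrays and at -0.33, -0.034 and 0.30 on wildtype replicates 1, 2 and 3. Among the 52 members, wildtype replicate 3 was the highest wildtype array for 31 (59.6%), against 35.9% of all genes, and its median excess over the mean of wildtype replicates 1 and 2 was 0.15, against -0.0036 over all genes. For that reason values without this array are given for each member whose call it changed, for each called member whose change it moved by more than 0.1, and for some others. Wildtype replicate 1 deviated to the other side in both controls, so values without wildtype replicate 3 alone are not to be preferred.

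Of the 52 members 4 rose in D6/Zbtb20S tissue, 8 fell and 40 did not pass the threshold. The rises were Pde1a, Pde1c, Pde8b and Adcy5, and the falls were Rgs6, Rgs11, Rgs9bp, Rgs12, Rgs20, Adcy1, Pde2a and Pde7b. The 12 called members make up 23.1% of the 52, while 7.71% of all genes were called (4.06% higher and 3.64% lower). The members were chosen with earlier results of these arrays known, so the difference in shares is no independent evidence. The median change was -0.07 over the members and -0.02 over all genes, and the median size of a change was 0.15 and 0.10. The counts were repeated over bright probe sets only (above the array median on at least 3 arrays): there 12 of 40 members were called (30.0%), against 11.9% of genes. In that count Rgs4 was called and Rgs9bp was not among the genes tested. A gene could pass this filter on the arrays of a single genotype, as Rgs6 and Pde7b did on wildtype arrays. The bright share is therefore no independent support for the count. Called with a change of at least 2-fold were 3 members, against 1.45% of all genes, and all 3 were phosphodiesterases that rose. Without wildtype replicate 3, 15 members were called, and 8.45% of all genes. An ordinary linear model does not borrow spread from other genes. With it, 4 members were called (Pde1c, Pde2a, Pde7b and Rgs6), and 1.47% of all genes.

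**Figure D1:**
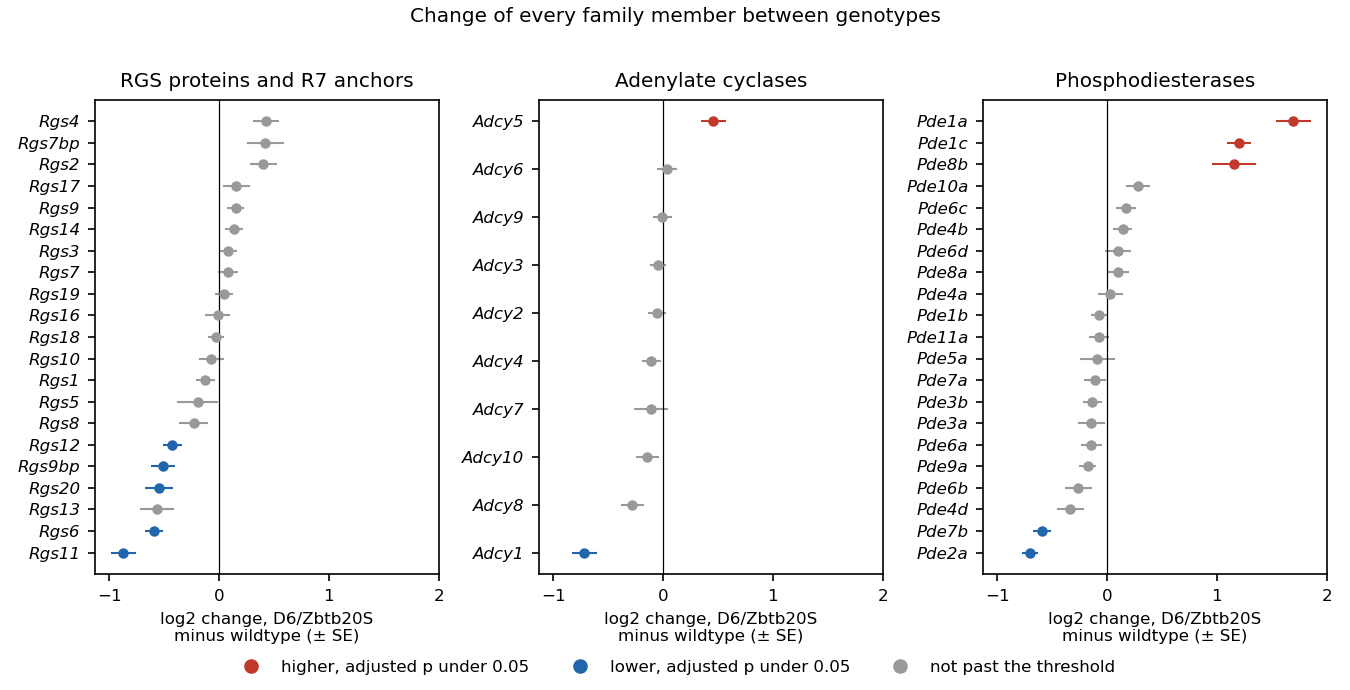
Log2 change (D6/Zbtb20S minus wildtype, ± SE of the limma fit, n = 3 and 3 arrays) of each of the 52 members, by family and sorted by change. The 3 phosphodiesterases at the top of the right panel lie above 1, and the called RGS genes all lie below 0.

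The RGS group gave 5 falls and 0 rises among 21 genes. An unadjusted limma p under 0.05 was found for 9 of the 21, against 3694 of all 18193 genes. Its median change was -0.02, as over all genes. The count rests on single arrays: without wildtype replicate 3 it was 3 higher (Rgs2, Rgs4 and Rgs7bp) and 5 lower, and without D6/Zbtb20S replicate 1 or 2 it was 0 higher and 2 lower. The falls came from 3 of its subfamilies and from the membrane anchors of a subfamily.

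The R7 proteins Rgs6, Rgs7, Rgs9 and Rgs11 act on Gi and Go alpha subunits and work as dimers with the G beta subunit Gnb5, held at the membrane by Rgs7bp or Rgs9bp. Rgs11 read 4.39, 4.52 and 4.65 on D6/Zbtb20S arrays, against 5.23, 5.34 and 5.61 on wildtype arrays. All D6/Zbtb20S arrays lay below all wildtype arrays, a 1.83-fold fall (-0.87 ± 0.11, adjusted p = 0.00128), and Rgs11 fell by 0.76 on the log2 scale without wildtype replicate 3. It has 1 probe set. Rgs6 read 3.75, 3.74 and 3.62 in D6/Zbtb20S tissue, against 4.25, 4.34 and 4.30 in wildtype tissue. Its groups did not overlap and it fell 1.51-fold (-0.59 ± 0.08, adjusted p = 0.00137), with the D6/Zbtb20S mean under the array median. The second Rgs6 probe set was under the median in both genotypes and changed by -0.07, and averaged over both Rgs6 was at -0.33 (adjusted p = 0.0207). Rgs7 and Rgs9, the other members of the subfamily, were at 0.08 ± 0.09 and 0.15 ± 0.08 and did not pass (adjusted p = 0.681 and 0.302). Whether Rgs6 and Rgs11 differ in response from Rgs7 and Rgs9 was not tested. Gnb5, from the list of other pathway genes, was at 0.22 (adjusted p = 0.192).

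The anchors went in opposite directions, with 1 of them called. Rgs9bp, known from photoreceptors, read 2.60, 2.39 and 2.78 on D6/Zbtb20S arrays, against 2.96, 3.21 and 3.13 on wildtype arrays. It fell 1.43-fold (-0.51 ± 0.11, adjusted p = 0.0222), but its signal was under the array median in both genotypes, and the call was lost (highest adjusted p 0.105) without D6/Zbtb20S replicate 1 or 2 or wildtype replicate 2. Rgs7bp, the neuronal anchor, read 5.70, 5.97 and 6.24 in D6/Zbtb20S tissue, against 5.35, 5.41 and 5.88 in wildtype tissue, with groups that overlapped. Its change was 0.42 ± 0.16 (adjusted p = 0.181), and 0.59 without wildtype replicate 3 (adjusted p = 0.0353).

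In the R12 subfamily, whose larger members are scaffolds as well as GTPase activators, Rgs12 fell. It read 5.64, 5.52 and 5.73 on D6/Zbtb20S arrays, against 6.15, 6.00 and 6.02 on wildtype arrays, a 1.35-fold fall with no overlap (-0.43 ± 0.09, adjusted p = 0.0148). The call was lost without D6/Zbtb20S replicate 1 or 2 (highest adjusted p 0.0645), and its other probe sets, dim in both genotypes, did not pass (-0.25 and -0.20). Rgs14, a brake on plasticity in CA2 neurons of the adult hippocampus, was at 0.14 ± 0.08 (adjusted p = 0.396), and its D6/Zbtb20S arrays lay above the wildtype ones. Rgs10, abundant in microglia, was at -0.07 ± 0.11 (adjusted p = 0.791).

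The RZ proteins Rgs17, Rgs19 and Rgs20 are known for their action on Gz as well as on Gi. Rgs20 read 6.33, 6.21 and 6.20 in D6/Zbtb20S tissue, against 6.63, 6.64 and 7.11 in wildtype tissue, so that wildtype replicate 3 stood above the other wildtype arrays. It fell 1.46-fold (-0.55 ± 0.13, adjusted p = 0.0312), and by 0.39 on the log2 scale without that array (adjusted p = 0.0292). The call was lost without any 1 of the D6/Zbtb20S arrays (adjusted p from 0.0833 to 0.098), and averaged over its probe sets Rgs20 was at -0.20 (adjusted p = 0.206).

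Rgs17 gave different answers on its 2 probe sets. On 1450693_at, which represents the gene, it read 6.83, 6.95 and 6.91 in D6/Zbtb20S tissue, against 6.50, 6.72 and 7.01 in wildtype tissue, a change of 0.16 that did not pass (0.29 without wildtype replicate 3, adjusted p = 0.131). On 1439779_at it read 6.30, 6.17 and 6.24 in D6/Zbtb20S tissue, against 6.52, 7.02 and 6.95 in wildtype tissue, a fall of -0.59 (adjusted p = 0.0377 over all probe sets). Wildtype replicate 1 was the lowest wildtype array on both. Which transcripts the probe sets read was not examined here. Rgs19 was at 0.05 ± 0.08.

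None of the 9 R4 genes, small RGS proteins that are often induced by activity, passed the threshold. An unadjusted limma p under 0.05 was found for 3 of the 9, against 3694 of all 18193 genes. The closest was Rgs4, an abundant cortical member that acts on Gi and Gq alpha subunits. Rgs4 read 7.24, 7.10 and 7.13 on D6/Zbtb20S arrays, against 6.45, 6.82 and 6.90 on wildtype arrays. Its groups did not overlap, and its change was 0.43 ± 0.12 (adjusted p = 0.0589). On a second Rgs4 probe set, 1416287_at, D6/Zbtb20S arrays read 5.23, 5.53 and 5.72, against 4.59, 4.75 and 5.06 on wildtype arrays, and this one passed (0.70, adjusted p = 0.0375 over all probe sets). Rgs4 itself passed without wildtype replicate 3 (0.52, adjusted p = 0.0281), and when averaged over its probe sets (adjusted p = 0.0166).

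Rgs2, which acts mainly on Gq, read 6.30, 6.25 and 6.17 in D6/Zbtb20S tissue, against 5.55, 5.90 and 6.06 in wildtype tissue. The groups did not overlap, and the change was 0.40 ± 0.12 (adjusted p = 0.0854), or 0.52 without wildtype replicate 3 (adjusted p = 0.0242). The other Rgs2 probe sets did not pass. Over all probe sets, 1419247_at was at 0.47 with no overlap (adjusted p = 0.0559) and 1447830_s_at at 0.57 with overlap (adjusted p = 0.261). The dim 1443250_at was at -0.06. Rgs13, a gene of the immune system, was at -0.57 ± 0.16 (adjusted p = 0.0603) on signals of 1.18 to 1.43 in D6/Zbtb20S tissue and 1.53 to 2.20 in wildtype tissue, all under the array medians of 3.83 to 3.97. Rgs5, a marker of pericytes, ran from 7.53 to 8.16 in D6/Zbtb20S tissue and from 7.66 to 8.33 in wildtype tissue, overlapping widely. Its change was -0.20 ± 0.19 (adjusted p = 0.629), and -0.026 without wildtype replicate 3. Of 11 mural cell markers 0 passed in limma, and 3 had an unadjusted limma p under 0.05, against 3694 of all 18193 genes. The other R4 genes (Rgs1, Rgs3, Rgs8, Rgs16 and Rgs18) changed by -0.23 to 0.08 and did not pass. Over all 52 members, called or not, the groups did not overlap for 23 (44.2%), against 26.1% of all genes, and 11 of these 23 were not called.

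**Figure D2:**
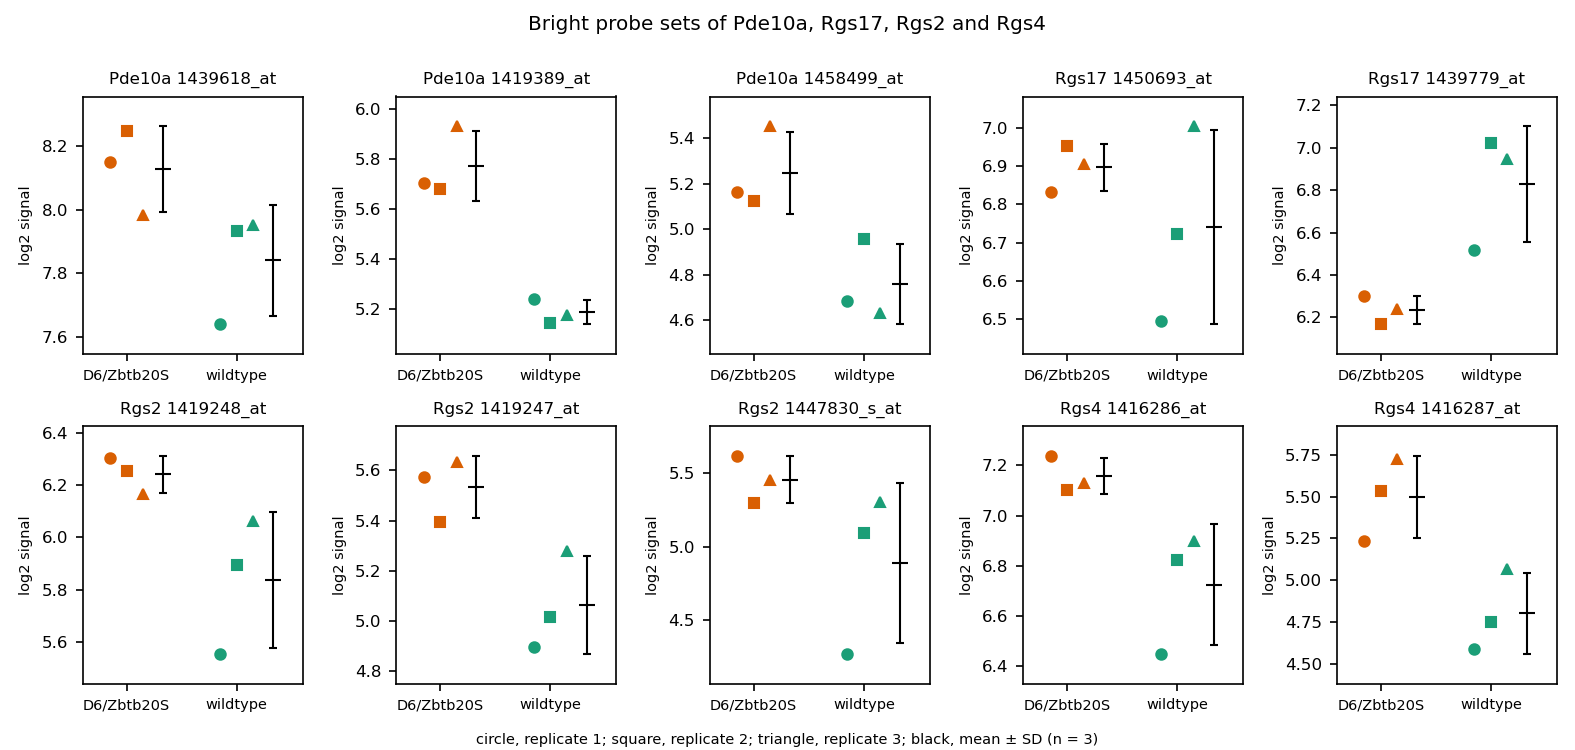
Log2 signal on each array for the probe sets of Pde10a, Rgs17, Rgs2 and Rgs4 with a group mean above 4.5, with D6/Zbtb20S left and wildtype right in each panel (black, mean ± SD, n = 3). The lower D6/Zbtb20S signal on Rgs17 1439779_at has no counterpart on 1450693_at, where the groups overlap.

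Among the 10 adenylate cyclases 1 rose and 1 fell. Adcy1, the calmodulin-stimulated cyclase that couples calcium entry to cyclic AMP in cortical and hippocampal neurons, read 8.51, 8.51 and 8.62 on D6/Zbtb20S arrays, against 9.07, 9.21 and 9.51 on wildtype arrays. All D6/Zbtb20S arrays lay below all wildtype arrays, and Adcy1 fell 1.65-fold (-0.72 ± 0.11, adjusted p = 0.00389). Its second probe set fell by -0.73 (adjusted p = 0.00315 over all probe sets), so both gave the same size. Without wildtype replicate 3 the change was -0.60 (adjusted p = 0.00369), and it held the threshold whichever array was left out.

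The other cyclases of the calmodulin-stimulated class did not pass: Adcy8 was at -0.28 ± 0.11 (adjusted p = 0.168) on signals under the array median in both genotypes, and Adcy3, the cyclase of neuronal cilia, at -0.04 ± 0.08 (adjusted p = 0.803). Adcy5, a cyclase inhibited by calcium and by Gi, and best known from the striatum, was the gene that rose. It read 7.04, 6.96 and 7.31 in D6/Zbtb20S tissue, against 6.62, 6.52 and 6.80 in wildtype tissue, a 1.37-fold rise with no overlap (0.46 ± 0.11, adjusted p = 0.0374). Its adjusted p was the highest of the 12 called members. The other 3 Adcy5 probe sets were at 0.03, -0.01 and -0.04, the last 2 of them dim in both genotypes, and the mean of the probe sets was at 0.11 (adjusted p = 0.496). The call was lost in 4 of the 6 fits that left out an array, those without D6/Zbtb20S replicate 1 or 3 or wildtype replicate 1 or 2 (adjusted p up to 0.158). Adcy6, the other calcium-inhibited cyclase, was at 0.04 ± 0.09. The G beta-gamma-stimulated cyclases Adcy2, Adcy4 and Adcy7 lay between -0.11 and -0.06, and Adcy9 and the soluble cyclase Adcy10 at -0.01 and -0.14, with adjusted p from 0.498 to 0.973.

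Phosphodiesterases held the largest changes of the 3 families, with 3 of 21 genes higher and 2 lower. The 3 rises were the only called members that changed at least 2-fold. Pde1a, a calcium- and calmodulin-activated enzyme that hydrolyses cyclic AMP and cyclic GMP, read 6.27, 6.63 and 6.47 on D6/Zbtb20S arrays, against 4.52, 4.61 and 5.15 on wildtype arrays. The gap between the groups exceeded the spread within either, and Pde1a rose 3.24-fold (1.70 ± 0.16, adjusted p = 0.000184), or by 1.89 on the log2 scale without wildtype replicate 3. Its second probe set was at 1.29 and 1.41 in the 2 genotypes, near the floor, and did not pass. Averaged over both, Pde1a rose by 0.79 on the log2 scale (adjusted p = 0.00107).

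Pde1c, another enzyme of the calmodulin-activated class, read 5.39, 5.37 and 5.32 in D6/Zbtb20S tissue, against 4.27, 3.90 and 4.29 in wildtype tissue. It rose 2.30-fold (1.20 ± 0.11, adjusted p = 0.000142) and passed in every one of the 6 fits that left out an array. The other 5 Pde1c probe sets were under the array median in both genotypes and did not pass, although 2 of them had D6/Zbtb20S arrays above all wildtype arrays (0.39 and 0.29). Averaged over all its probe sets Pde1c rose by 0.29 on the log2 scale (adjusted p = 0.0462), so the size of its change depends on the probe set. Pde1b, the third calmodulin-activated gene, was at -0.07 ± 0.08 (adjusted p = 0.676) on a probe set well above the array median.

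Pde8b, a high-affinity enzyme for cyclic AMP, read 5.23, 4.91 and 5.26 on D6/Zbtb20S arrays, against 3.72, 3.70 and 4.51 on wildtype arrays. Wildtype replicate 3 lay 0.80 above the mean of the other wildtype arrays, the widest such gap among the members. Pde8b rose 2.22-fold (1.15 ± 0.20, adjusted p = 0.00687), and by 1.42 on the log2 scale without that array (adjusted p = 8.27e-05). Its second probe set was at 0.68 with no overlap but did not pass (adjusted p = 0.0930 over all probe sets). Pde8a was at 0.10 ± 0.10.

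Of the falls, Pde2a, which hydrolyses cyclic AMP faster when cyclic GMP binds it, read 8.77, 8.80 and 8.79 in D6/Zbtb20S tissue, against 9.47, 9.45 and 9.55 in wildtype tissue. Both groups were tight, and the fall was 1.63-fold (-0.70 ± 0.07, adjusted p = 0.000333). Its probe set is of the _s_at type, which can match more than 1 transcript, but 1452202_at fell too (-0.90, adjusted p = 0.000807 over all probe sets), and the remaining one was at -0.29. Pde7b, an enzyme specific to cyclic AMP, read 3.72, 3.78 and 3.87 on D6/Zbtb20S arrays, against 4.43, 4.43 and 4.29 on wildtype arrays. It fell 1.51-fold (-0.60 ± 0.08, adjusted p = 0.00176), with its D6/Zbtb20S mean under the array median. Averaged over its probe sets Pde7b did not pass (-0.21, adjusted p = 0.163), since the other probe sets, dim in both genotypes, were at -0.003 and -0.02.

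**Figure D3:**
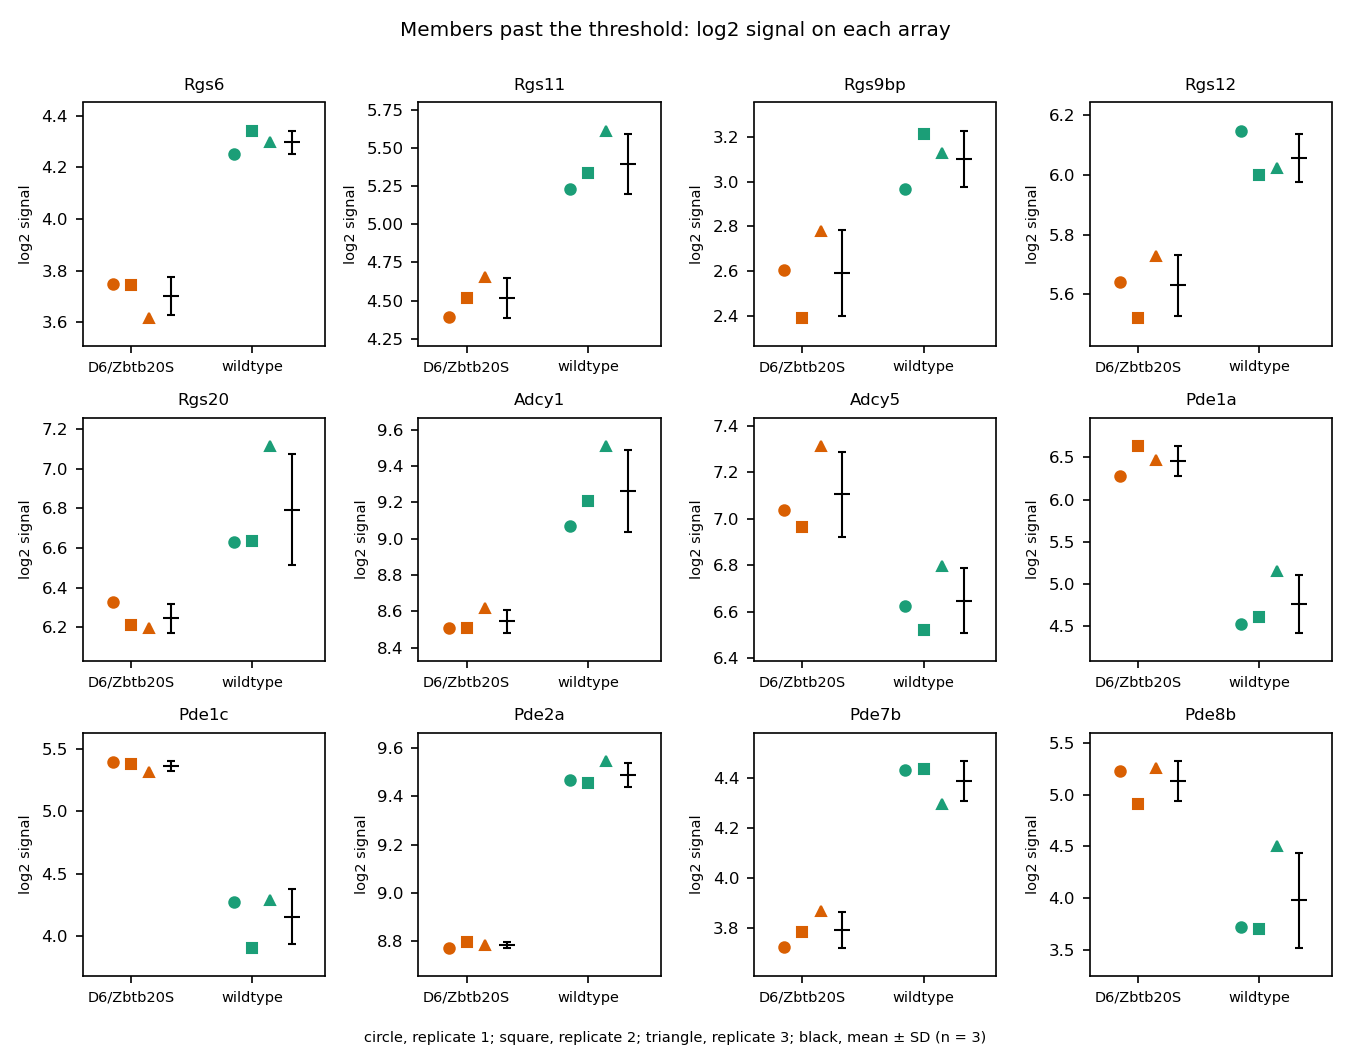
Log2 signal on each of the 6 arrays for the 12 members past the threshold, with D6/Zbtb20S left and wildtype right in each panel (black, mean ± SD, n = 3; each panel has its own scale). In every panel the arrays of the genotypes do not overlap, and wildtype replicate 3 (triangle) stands above the other wildtype arrays for Pde8b, Pde1a, Rgs20, Adcy1, Rgs11, Adcy5, Pde2a and Pde1c.

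The 16 phosphodiesterase genes not called had changes from -0.34 to 0.29 and adjusted p from 0.156 to 0.912. Among the Pde4 genes, the targets of rolipram, Pde4d read 7.35, 7.28 and 7.27 in D6/Zbtb20S tissue, against 7.33, 7.81 and 7.77 in wildtype tissue. Wildtype replicate 1 lay within the D6/Zbtb20S range, and the change of -0.34 ± 0.12 did not pass (adjusted p = 0.156), while without that array it was -0.49 (adjusted p = 0.0103). Pde4a and Pde4b were at 0.03 and 0.14. Pde10a, a dual-substrate enzyme concentrated in striatal projection neurons, was at 0.29 ± 0.11 on its representative probe set (adjusted p = 0.173), and its D6/Zbtb20S arrays lay above the wildtype ones. On 1419389_at Pde10a read 5.70, 5.68 and 5.93 in D6/Zbtb20S tissue, against 5.24, 5.15 and 5.18 in wildtype tissue, which passed (0.58, adjusted p = 0.00847 over all probe sets). Its remaining probe sets did not pass: 1458499_at was at 0.49 (adjusted p = 0.0601 over all probe sets), 1432490_a_at at 0.009 and the dim 1419390_at at -0.12. Averaged over its probe sets Pde10a was not called.

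The genes specific to cyclic GMP did not pass. Pde9a, with the highest affinity for cyclic GMP, was at -0.18 ± 0.08 (adjusted p = 0.220), and Pde5a, the target of sildenafil, at -0.09 ± 0.16. The photoreceptor genes Pde6a, Pde6b and Pde6c were under the array median in both genotypes, as were Pde3a and Pde11a, and changed by -0.26 to 0.18. Pde3b, Pde7a and Pde6d, a carrier of prenylated proteins and no phosphodiesterase despite its name, were at -0.13, -0.11 and 0.10.

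Over all 122 probe sets of the members, 5 were higher and 10 lower (12.3%), against 5.52% of all 45037 probe sets (3.40% higher and 2.11% lower). Of the 70 probe sets that do not represent their gene, 5 were called, namely those of Adcy1, Pde2a, Rgs4, Rgs17 and Pde10a described above, and 42 were under the array median in both genotypes. Counted over probe sets, Adcy5 (adjusted p = 0.0628) and Rgs20 (adjusted p = 0.0552) were not called.

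Because transcription driven by cyclic AMP runs through the cyclic AMP response element, promoters of the members were searched for it as a description of their sequence. RefSeq promoter windows (GRCm38.p6, 250 bases before to 50 after a transcript start) were matched by symbol for 38 of the 52 members and for 9 of the 12 called ones, some with several starts. The full element TGACGTCA, searched on both strands, was in 0 of 68 member windows, against 1.79% of 32851 windows of all genes. Its core TGACG, which the full element contains, was in 13 of 68 member windows (19.1%), against 20.8% of all windows. Of 23 windows of called members 4 held the core, 1 each of Pde1a, Pde8b, Pde2a and Rgs12, while none of the 3 Pde1c windows and not the single Adcy1 window did. These 4 windows are shown because they are the called members' windows with a match. They are written 5' to 3' on the strand of the gene, in lower case, with the core or its reverse complement in capitals.
Pde1a, chr2:80038853-80039152, minus strand: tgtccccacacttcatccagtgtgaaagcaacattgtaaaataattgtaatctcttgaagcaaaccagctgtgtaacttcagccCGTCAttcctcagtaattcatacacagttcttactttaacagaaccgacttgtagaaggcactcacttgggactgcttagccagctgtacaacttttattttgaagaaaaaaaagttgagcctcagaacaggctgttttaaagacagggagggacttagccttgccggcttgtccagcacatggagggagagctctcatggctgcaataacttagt
Pde8b, chr13:95223001-95223300, minus strand: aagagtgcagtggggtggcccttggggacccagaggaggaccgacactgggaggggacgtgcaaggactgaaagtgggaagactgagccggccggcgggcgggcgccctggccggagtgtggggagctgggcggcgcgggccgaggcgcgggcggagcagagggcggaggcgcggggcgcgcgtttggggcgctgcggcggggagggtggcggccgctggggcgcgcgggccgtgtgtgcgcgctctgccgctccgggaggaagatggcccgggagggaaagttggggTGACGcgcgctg
Pde2a, chr7:101450270-101450569, plus strand: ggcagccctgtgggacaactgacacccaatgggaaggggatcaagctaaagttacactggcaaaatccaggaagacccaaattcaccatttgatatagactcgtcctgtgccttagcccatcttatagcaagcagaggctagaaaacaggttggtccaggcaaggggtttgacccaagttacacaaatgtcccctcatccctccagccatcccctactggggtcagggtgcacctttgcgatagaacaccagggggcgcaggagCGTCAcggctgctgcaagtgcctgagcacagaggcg
Rgs12, chr5:34998828-34999127, plus strand: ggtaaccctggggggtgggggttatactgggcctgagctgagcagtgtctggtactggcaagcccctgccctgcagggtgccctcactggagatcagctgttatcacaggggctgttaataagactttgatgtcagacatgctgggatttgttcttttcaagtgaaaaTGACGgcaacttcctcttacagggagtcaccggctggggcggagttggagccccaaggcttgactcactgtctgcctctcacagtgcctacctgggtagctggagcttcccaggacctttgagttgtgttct
The match begins 166 bases before the start in the Pde1a window and 82 before it in the Rgs12 window, and 38 and 14 bases after the start in the Pde8b and Pde2a windows. Pde1a and Pde8b rose and Pde2a and Rgs12 fell. A match describes letters in a window and is not shown to be a bound site.

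Other genes of these pathways were taken from 7 lists of 79 genes, 75 of them measured. In all, 4 rose and 8 fell (16.0%, against 7.71% of all genes), with a median change of -0.06. These genes were brighter than most: 66 of the 75 were above the array median in both genotypes, against 11558 of 18193 genes. Among all genes not under the array median in both genotypes, 10.6% were called. The lists were also chosen with earlier results of these arrays known. The largest change was in cyclic GMP synthesis. Gucy1a1 and Gucy1b1, the subunits of the nitric oxide receptor guanylate cyclase, both fell. Gucy1a1 read 5.87, 6.01 and 5.96 on D6/Zbtb20S arrays, against 7.78, 8.09 and 7.69 on wildtype arrays, a 3.75-fold fall (-1.91 ± 0.11, adjusted p = 1.3e-05), and its other 2 probe sets fell too. Gucy1b1 read 6.60, 6.38 and 7.04 in D6/Zbtb20S tissue, against 7.65, 8.21 and 8.0 in wildtype tissue, a 2.42-fold fall (-1.28 ± 0.18, adjusted p = 0.00197), and its other probe set, at -0.57 with overlapping groups, did not pass (adjusted p = 0.173 over all probe sets). Prkg1, the cyclic GMP-dependent kinase, rose (0.50 ± 0.12, adjusted p = 0.0293), a call lost on omitting any 1 of 5 arrays, all but wildtype replicate 3 (adjusted p up to 0.119). In this list 1 of 8 rose and 2 fell.

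Among 12 alpha subunits 1 rose, Gnai1, which inhibits cyclases (0.40 ± 0.08, adjusted p = 0.0160), and its 3 probe sets were all called higher. The Gnai1 call was lost without either genotype's replicate 1 or 2 (adjusted p up to 0.0837). Among 14 beta and gamma subunits 1 rose and 1 fell. Gng7, known for its pairing with the striatal Golf protein, read 6.68, 6.65 and 6.73 in D6/Zbtb20S tissue, against 5.53, 5.56 and 5.81 in wildtype tissue, a 2.07-fold rise (1.05 ± 0.09, adjusted p = 0.000121). Gng4 read 7.78, 7.49 and 7.92 on D6/Zbtb20S arrays, against 8.56, 8.87 and 9.22 on wildtype arrays, a 2.23-fold fall (-1.15 ± 0.16, adjusted p = 0.00211).

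Downstream of cyclic AMP, 2 of 9 protein kinase A genes fell and 0 rose. The type II regulatory subunit Prkar2b read 7.55, 7.63 and 7.25 in D6/Zbtb20S tissue, against 8.25, 8.53 and 8.40 in wildtype tissue, a 1.88-fold fall (-0.91 ± 0.12, adjusted p = 0.00116). Prkar2a fell by 0.33 on the log2 scale (adjusted p = 0.0425), and this call was lost in each of the 6 fits that left out an array (adjusted p up to 0.187). A second bright Prkar2a probe set was at 0.22 with overlapping groups, and averaged over its probe sets Prkar2a was at -0.012 (adjusted p = 0.950). The anchoring protein Akap7 fell 1.77-fold (-0.83 ± 0.09, adjusted p = 0.000459), as 1 of 11 in its list. The CREB-related factor Crem rose 1.45-fold (0.53 ± 0.12, adjusted p = 0.0233), as 1 of 6, and lost its call without any 1 of the D6/Zbtb20S arrays or without wildtype replicate 2 (adjusted p up to 0.092). Of 15 other RGS-domain proteins and G protein modulators 2 fell: Axin2, a scaffold of Wnt signalling with an RGS domain (-0.53 ± 0.10, adjusted p = 0.00792), and the receptor kinase Grk3 (-0.46 ± 0.10, adjusted p = 0.0183). The Grk3 call was lost without D6/Zbtb20S replicate 1 or 2 or wildtype replicate 2 (adjusted p up to 0.0863). The other Grk3 probe sets were at 0.65 and 0.32 and did not pass, so the sign of Grk3 depends on the probe set.

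**Figure D4:**
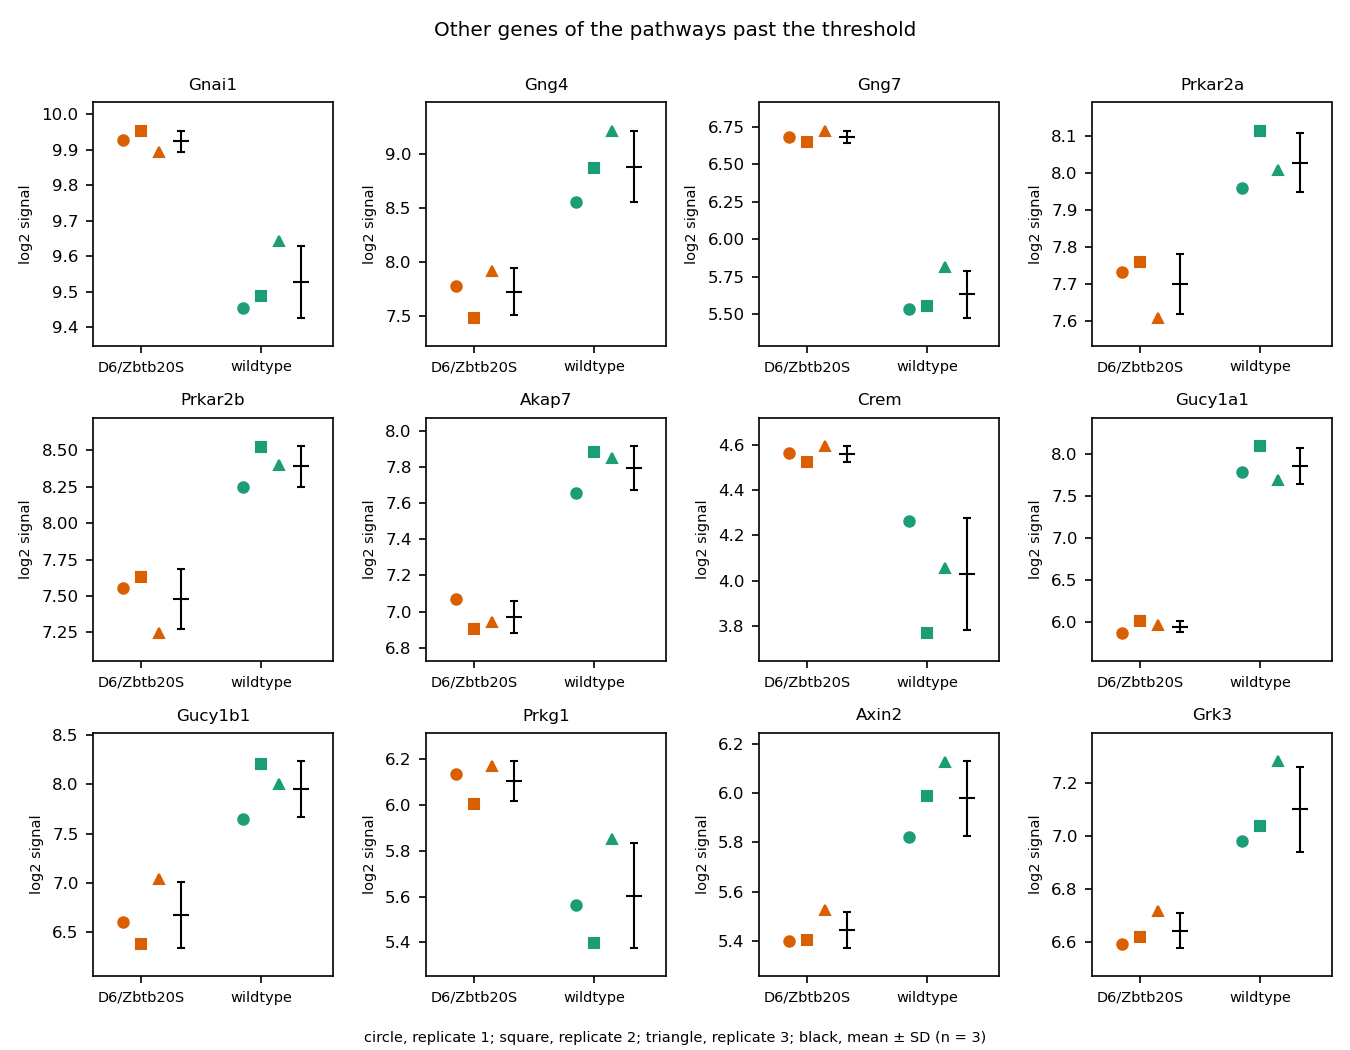
Log2 signal on each array for the 12 genes of the other pathway lists past the threshold, with D6/Zbtb20S left and wildtype right in each panel (black, mean ± SD, n = 3; each panel has its own scale). Gucy1a1 and Gucy1b1 lie lower in all D6/Zbtb20S arrays, and Gng7 higher.

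Several members are known as markers of cell types, so all marker lists are given beside them, to be read against the 7.71% of all genes called. Adcy5, Pde10a, Rgs9, Pde1b and Gng7 are concentrated in the striatum. On their representative probe sets Adcy5 (0.46) and Gng7 (1.05) were called, while Pde10a, Rgs9 and Pde1b, at 0.29, 0.15 and -0.07, were not. In the striatal list 3 of 8 genes were higher (Foxp1 1.12, Penk 0.66, Ppp1r1b 0.44), and the median change of the list was 0.07. Its summed linear signal was 1387 to 1490 on D6/Zbtb20S arrays, against 681 to 789 on wildtype arrays. Foxp1 made up most of that sum, and Drd1, Drd2, Isl1 and Ebf1 were under the array median in both genotypes. Microglial genes, beside which Rgs10, Rgs2, Rgs1 and Rgs18 may be read, had 4 of 13 higher (Cx3cr1 0.87, Tyrobp 0.69, Fcrls 0.55, Ctss 0.49) and summed to 829 to 961 on D6/Zbtb20S arrays, against 637 to 676 on wildtype arrays. Aif1, Itgam and Ptprc were under the array median in both genotypes. Of the members named beside the microglial list none was called: Rgs2 was at 0.40, and Rgs10, Rgs1 and Rgs18 at -0.07, -0.12 and -0.02. Rgs1 and Rgs18 were under the array median in both genotypes. Oligodendrocyte lineage genes had 5 of 10 lower (median -0.40), with sums of 859 to 980 in D6/Zbtb20S tissue, against 1223 to 1374 in wildtype tissue, and GABAergic genes had 1 of 11 lower (median -0.13), with sums of 932 to 979 in D6/Zbtb20S tissue, against 1113 to 1162 in wildtype tissue. The GABAergic share (9.09%) was near that of all genes, and 1 gene each was called among endothelial genes (1 of 9 lower, Slc2a1) and radial glial genes (1 of 11 lower, Sox2). Endothelial sums were 431 to 518 in D6/Zbtb20S tissue, against 489 to 546 in wildtype tissue. Radial glial sums, made up mostly of Fabp7, were 5605 to 5888 in D6/Zbtb20S tissue, against 5434 to 5938 in wildtype tissue. Pyramidal neuron genes, of the cell type in which Adcy1 and Pde2a are abundant, had 4 of 7 called, 2 higher (Neurod2 1.12, Bcl11b 0.99) and 2 lower (Tbr1 -1.41, Fezf2 -1.19), and summed to 2700 to 3301 on D6/Zbtb20S arrays, against 2275 to 2560 on wildtype arrays. The higher pyramidal sum came from Bcl11b and Neurod2, and the median change of that list was -0.09. Thalamic genes had 1 of 7 lower (Slc17a6, -1.26), with sums of 154 to 193 on D6/Zbtb20S arrays, against 232 to 307 on wildtype arrays. The gap between these sums came from Slc17a6, which is also among the markers of the dissected areas below. The median change of the thalamic list was -0.06, and Lhx9 was at 0.70 with overlapping groups and did not pass (limma adjusted p = 0.262). Gbx2 and Prox1 were under the array median in both genotypes. Mural sums overlapped, at 393 to 509 on D6/Zbtb20S arrays and 381 to 474 on wildtype arrays. The part of these cell types in the changes of the members was not tested.

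All 7 markers of the dissected areas, among them Tshz2 and Nr4a2 for retrosplenial cortex and Nts for subiculum, were above the array median in wildtype tissue and were lower in D6/Zbtb20S tissue. That list was drawn up with earlier results of these arrays known, so its direction is no independent evidence. In the CA1 list 2 of 7 genes rose (Nectin3 1.89, Man1a 0.53) and Satb1 fell (-1.19). The changes of the 12 members stand beside these changes of the areas' own marker genes.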

How the data were processed

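The series holds 6 arrays of 2 genotypes. The deposited values are log2 signals per probe set, and RMA and limma are named in the submitters' processing notes without version, order or build. Array medians lay between 3.83 and 3.97, so the deposited log2 values were not set to a common array median. Which other scaling between arrays the authors applied stays unknown. The lowest values per array, 0.57 to 0.77, are low for plain RMA, so the background step used, and with it the scale of changes on dim probe sets, stays unknown. Of 45101 probe sets, 64 controls were left out. The platform annotation gave 34945 of the rest 1 gene symbol, 932 several and 9160 none, and genes were named from single symbols only. Gene IDs of all 52 members were found, under the same symbol, in the RefSeq gene table of GRCm38.p6.

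Genotypes were compared with limma 3.58.1 in R 4.3.3 (lmFit, eBayes, 1 coefficient per group, no covariates, 3 arrays each), with Benjamini-Hochberg adjustment over all genes at 0.05. The fit was tested on simulated data. Plots used Python 3.11.15 and matplotlib 3.10.9. Members, roles, pathway lists and marker lists were chosen with earlier results of these data known. All members could be named, as could each called pathway gene and up to 4 called markers per list (all called in the CA1 list). Called means past the threshold. The number of arrays limits precision.

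Alternatives were a replicate block, each array left out, array weights, quantile normalization, equal array medians, an eBayes trend on intensity, bright probe sets only, the mean of probe sets, thresholds of 0.01 and 0.1, and an ordinary linear model. Replicate numbers are shared by the genotypes in the labels, but deviations from group means of same-numbered arrays correlated at -0.215, 0.175 and -0.00814, so the numbers were not taken as pairs.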

Additional observations from a re-analysis of the deposited data

How the results depend on the processing

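The phosphodiesterase calls held best: 5 genes were called under every alternative except 4 with the mean of probe sets, 6 with array weights or without wildtype replicate 1, and 3 with the ordinary linear model (1 higher, 2 lower). Their sizes moved: with the mean of probe sets Pde1a was at 0.79 and Pde1c at 0.29. With the ordinary linear model 4 members, 1 RGS gene, 0 adenylate cyclases and 3 other pathway genes were called, and 1.47% of all genes. That model is limma without moderation, and 3 of 10 cyclases had an unadjusted p under 0.05 in the moderated fit, against 3694 of all 18193 genes. At a threshold of 0.01, 2 RGS genes, 1 cyclase and 7 pathway genes were called, and 3.81% of all genes. At 0.1, 8 RGS genes were called, and 11.3% of all genes. Array weights gave 8 RGS genes (3 higher, 5 lower) and 21 pathway genes, with 14.9% of all genes called. The mean of probe sets gave 1 cyclase, with 8.23% of all genes called.

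Leaving out 1 array at a time, between 8 and 15 members were called, between 2 and 8 RGS genes, between 1 and 2 cyclases, between 5 and 6 phosphodiesterases, and between 7 and 13 pathway genes. The low ends came without D6/Zbtb20S replicate 1 for members, without D6/Zbtb20S replicate 1 or 2 for RGS genes, and without either of these or wildtype replicate 2 for pathway genes (7 in each). The share of all genes called moved too, from 4.27% without wildtype replicate 2 to 8.45% without wildtype replicate 3. With the replicate block, 13 members and 12 pathway genes were called, and 7.38% of all genes. Of the genes described, Rgs7bp gained a call under the block (adjusted p = 0.0272) and Prkar2a lost its own.

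No called member changed sign. The called pathway gene Grk3 averaged over its probe sets turned to 0.17 (adjusted p = 0.504). By the same mean Crem was at 0.22 and Prkg1 at 0.53, both no longer called (adjusted p = 0.0837 and 0.0592), and Axin2 at -0.25 (adjusted p = 0.0496). Among members not called, the mean of probe sets turned the sign of Adcy3 (0.061), Pde5a (0.084), Rgs17 (-0.22), Rgs19 (-0.021), Rgs5 (0.079) and Rgs9 (-0.024). Array weights turned Adcy2 (0.00076), Pde4a (-0.11) and Rgs16 (0.064), and quantile normalization turned Pde4a (-0.0012) and Rgs18 (0.028). With 1 array left out at a time, these members changed sign: Adcy2 ran from -0.10 to 0.012, Adcy6 from -0.038 to 0.10, Adcy7 from -0.27 to 0.072, Adcy9 from -0.055 to 0.052, Pde4a from -0.041 to 0.13, Pde5a from -0.25 to 0.057, Rgs7 from -0.0013 to 0.14, Rgs10 from -0.16 to 0.030 and Rgs16 from -0.10 to 0.080. The cause of these shifts was not tested. Of the 12 members under the array median in both genotypes, only Rgs9bp was called.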
